A study of Mus musculus with 14 samples.

Results

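N6-methyladenosine (m6A) on mRNA is bound by reader proteins and can be taken off by eraser proteins. The 10 genes described here encode 8 readers, *Ythdf1*, *Ythdf2*, *Ythdf3*, *Ythdc1*, *Ythdc2*, *Igf2bp1*, *Igf2bp2* and *Igf2bp3*, and 2 erasers, *Alkbh5* and *Fto*. They were chosen by name, for these roles, from the 52459 genes of the count tables. All 10 were among the 11869 genes that averaged at least 1 FPKM (counts scaled by exon length and library size) at 0 h.

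E14Tg2a cells, a line of mouse embryonic stem cells (mESCs), were compared with cells of the same line that carry METTL14 R255K, a knock-in that puts lysine in place of an arginine of the methyltransferase subunit METTL14. The knock-in lines came from single colonies, and the labels do not say how many clones the libraries represent. Polyadenylated RNA was sequenced after 0, 4 and 8 h in 5 μg/ml actinomycin D, which blocks transcription, with 1 library for each of the 2 genotypes and 3 times. RNA fragments pulled down with an m6A antibody (IP) and the input RNA gave a list of m6A peaks for each genotype, from 2 IP and 2 input libraries of untreated total RNA.

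The YTH readers hold the methylated base in the pocket of their YTH domain. YTHDF1, YTHDF2 and YTHDF3 act in the cytoplasm, where YTHDF2 is known for bringing the CCR4-NOT deadenylase to its targets. YTHDC1 is the nuclear member, with known roles in splicing and export and, in mESCs, in silencing of retrotransposons, and YTHDC2 is a helicase best known from meiosis. The IGF2BP proteins bind through KH domains and are known for stabilizing their targets. ALKBH5 and FTO are dioxygenases that remove the methyl group.

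The 6 libraries held between 13812160 and 18813640 counts. *Mettl14* itself was read at 39.1, 25.1 and 16.8 CPM (counts scaled to equal library size) in WT cells at 0, 4 and 8 h and at 19.1, 15.1 and 11.1 in R255K cells. A change of 1 codon cannot be seen in counts, so these values do not check the genotype. The 7 mESC markers summed to between 3643 and 4935 CPM in WT and between 2788 and 3540 in R255K libraries, and none of them was at 0. The 6 fibroblast markers summed to between 7.48 and 7.86 CPM in WT, where *Postn* was at 0 throughout, and to between 32.1 and 35.9 in R255K libraries. The 5 markers of differentiated cells summed to between 2.90 and 33.7 CPM in WT and between 7.60 and 29.4 in R255K libraries. The part of these marker differences in the results below was not tested. With 1 library per genotype and time there is no replicate check. All intervals are 95% intervals that cover counting error only, and a difference between genotypes is a difference between libraries.

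In WT cells 15 peaks lay on exons of 7 of the 10 genes. *Ythdc1* had 4, *Ythdf3* had 3, *Ythdf2*, *Alkbh5* and *Igf2bp1* had 2 each, and *Ythdf1* and *Fto* had 1 each. *Ythdc2*, *Igf2bp2* and *Igf2bp3* had none in either genotype. Of all expressed genes, 56.7% had a WT peak on an exon and 43.2% had an R255K peak.

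The peaks on the coding sequence of *Ythdf1*, *Ythdf2* and *Ythdf3* lay in the same place in each gene, the long exon 4 of 5. They were 1456, 1624 and 1526 bp wide and covered 94.5%, 94.2% and 88.2% of exons of 1521, 1584 and 1599 bp. The WT peak over the start of *Alkbh5*, in exon 1 of 4, was 1364 bp wide. By a width of 1300 bp, which was chosen after these values were seen, 4.57% of the 13994 WT peaks on exons were as wide. The *Fto* peak was 511 bp wide and lay in coding exon 3 of 9. The following 101-base windows, read from the GRCm38 genome (mm10) on the strand of the gene, centre on the coding summits of *Ythdf1*, *Ythdf2* and *Fto*, and capitals mark the 5-base m6A consensus of 2 purines, A, C and then A, C or T.
Ythdf1, chr2:180911560-180911660, minus strand: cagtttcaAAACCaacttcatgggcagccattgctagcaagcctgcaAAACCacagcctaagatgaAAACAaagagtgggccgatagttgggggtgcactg
Ythdf2, chr4:132204320-132204420, minus strand: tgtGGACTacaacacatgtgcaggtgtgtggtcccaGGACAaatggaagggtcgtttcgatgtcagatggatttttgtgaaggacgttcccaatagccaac
Fto, chr8:91409571-91409671, plus strand: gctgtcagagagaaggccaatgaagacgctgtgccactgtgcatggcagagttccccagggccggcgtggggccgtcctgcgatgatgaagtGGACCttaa

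The *Ythdf1* window held the consensus 3 times without GGAC, its most used form, whereas the *Ythdf2* window held GGAC. Over its full width, the *Ythdf1* peak held GGAC 10 times, the *Ythdf2* peak 11 times and the *Fto* peak 4 times. GGAC was found on the strand of the gene within 50 bases of the summit in 13 of the 15 peaks, and in 61.5% of 13157 WT exonic peaks. The consensus, which contains every GGAC not followed by G, was found in 14 of the 15 and in 92.0% of all. A match shows the letters and not a methylated base.

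Another group of peaks was absent from the R255K list. Of the 15 WT peaks, 4 had no overlapping R255K peak, and each of the other 11 had exactly 1. Over all WT peaks on exons, 48.0% had none. Of the 7 genes with a WT peak, 3 had at least 1 such peak, *Ythdc1*, *Alkbh5* and *Igf2bp1*, beside 55.2% of expressed genes with a WT peak on an exon. Of the 4 peaks, 3 had their summit just before the stop codon, 44 bases before the last coding base in *Ythdc1*, 15 in *Alkbh5* and 18 in *Igf2bp1*. The remaining one lay in an intron of *Ythdc1*. Sites of 30 bases at these summits, with the consensus in capitals, read as follows.
Ythdc1, chr5:86835857-86835886, plus strand: aatatgtgatcgGGACAgAGACCgagggga
Alkbh5, chr11:60554395-60554424, plus strand: gtgaagatgaggAGACActgaggctctgtg
Igf2bp1, chr11:95963518-95963547, minus strand: cagcaccagaagGGACAgagcaacctggcc
Ythdc1 intron, chr5:86828126-86828155, plus strand: gaaacgttctttGGACTgataataggcaca

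These 4 peaks were weak already in WT cells. Their fold enrichment, the IP signal at the summit over the local background, lay between 1.90 and 2.70, and their −log10 q between 4.84 and 11.7. The 11 others had fold enrichments between 2.18 and 7.88 and −log10 q between 13.3 and 134. The medians over all exons were 4.99 for WT peaks without and 7.97 for WT peaks with an R255K peak.

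A pair of *Ythdc1* peaks lay outside its principal transcript, in the intron of 2432 bp between exons 11 and 12, which other annotated transcripts of the gene keep as exon. The weaker one is the intron peak without an R255K peak. The stronger one, chr5:86828798-86829574, had the highest fold enrichment of the 15 WT peaks, 7.88, and one of 10.3 in R255K cells. It is shown because its fold enrichment was the highest of the set. By −log10 q it was not the first, at 46.1 in WT cells beside 134 for the coding peak of *Ythdf2*. In R255K cells its −log10 q was lower, at 27.8.
Ythdc1 intron, chr5:86829395-86829424, plus strand: cagtcagtagttGGACTactatatGAACTg

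Where a peak was found in both genotypes, the genes differed in direction. *Fto* went from a fold enrichment of 6.81 in WT to 2.33 in R255K cells and *Alkbh5*, at its start, from 3.76 to 1.98. *Ythdf1* went from 4.16 to 3.42 and the coding peak of *Ythdf2* from 6.52 to 5.63. All 3 peaks of *Ythdf3* went the other way, from 7.22 to 10.8 in the 5´UTR, from 6.69 to 11.5 in exon 4 and from 4.22 to 5.81 in the 3´UTR. The start of *Ythdc1* went from 3.54 to 5.02. The 3´UTR peak of *Ythdf2* had 2.63 and 2.75, and the 5´UTR peak of *Igf2bp1* had 2.18 and 2.31. The median ratio of R255K over WT was 1.06 for the 11 peaks, of which 36.4% were lower in R255K cells, and 0.792 for all 7273 such peaks on exons, of which 71.0% were lower. By −log10 q the median ratio was 0.653 for the 11 peaks and 0.498 for all such peaks. The −log10 q of the *Ythdf3* peaks went from 29.1 to 47.4 in the 5´UTR, from 124 to 146 in exon 4 and from 30.8 to 19.1 in the 3´UTR. Peaks of 1 gene are not independent of each other. The lists give 1 value per genotype, so the spread between IP libraries is unknown.

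**Figure D1:**
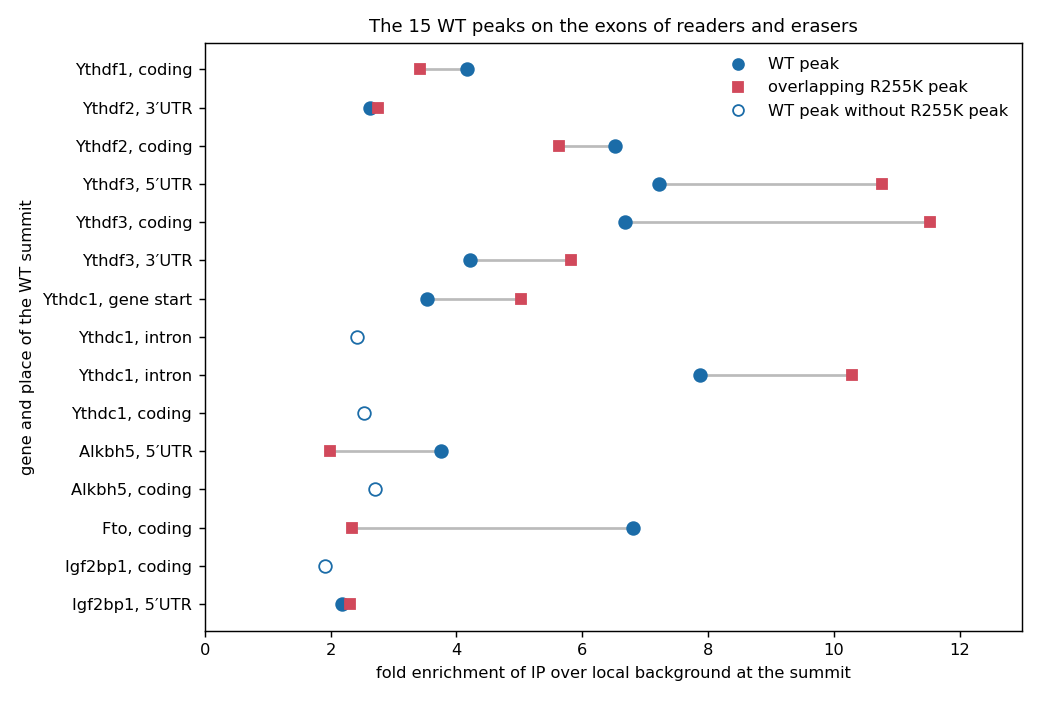
Fold enrichment (x axis, ratio of IP over local background) of the 15 WT peaks on exons of readers and erasers (y axis, by gene and place), with circles for WT peaks, squares for the overlapping R255K peaks and open circles for the 4 WT peaks without one. The open circles lie between 1.90 and 2.70, and the squares lie to the right of the circles for all 3 *Ythdf3* peaks and far to the left for *Fto*.

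At 0 h the readers and erasers spanned a wide range of levels. In WT cells *Ythdf1* was the highest, at 78.5 FPKM (95% interval 76.2 to 80.8), ahead of *Igf2bp1* at 63.3 FPKM. Then came *Ythdf2* at 31.8, *Ythdf3* at 25.05, *Alkbh5* at 21.6, *Igf2bp2* at 13.1, *Fto* at 9.25, *Igf2bp3* at 8.23, *Ythdc1* at 7.70 and *Ythdc2* at 2.06 FPKM. Of these neighbours, *Igf2bp3* and *Ythdc1* had overlapping intervals. In R255K cells the order began with *Igf2bp1* at 101.9 FPKM and *Ythdf1* at 84.4 and ended with *Igf2bp3* at 2.06 and *Ythdc2* at 1.20. *Ythdf3*, at 10.8 FPKM, and *Fto*, at 10.6, overlapped there. The exon lengths in the tables count every annotated exon, 13651 bp for *Ythdc1* and 13031 bp for *Fto*, so the FPKM of genes with many alternative exons are low estimates of the level per transcript.

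After 8 h in WT cells the order was another one, led by *Igf2bp1* at 21.9, *Igf2bp2* at 14.04 and *Fto* at 11.6 FPKM, whereas *Ythdf1* was at 4.80 and *Ythdf2* and *Alkbh5*, with overlapping intervals, at 1.82 and 1.72. In R255K cells at 8 h *Igf2bp1* at 58.1 and *Ythdf1* at 26.7 FPKM still stood first, followed by *Alkbh5* at 14.2, *Ythdf2* at 13.4, *Fto* at 12.2 and *Igf2bp2* at 11.8, each overlapping with the next. *Ythdc2* was last in all 6 libraries.

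**Figure D2:**
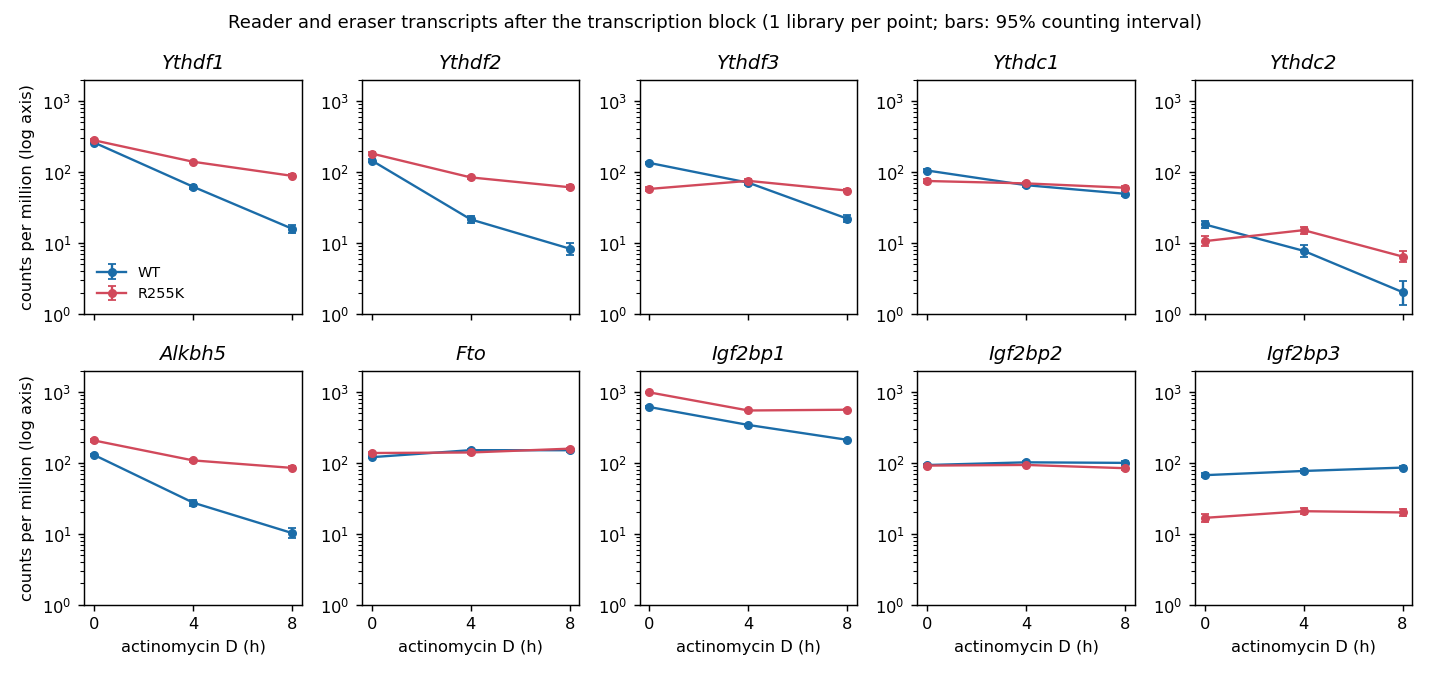
Level of each gene (y axis, CPM, log axis) against time in actinomycin D (x axis, h) in WT (blue) and R255K (red) cells, 1 library per point, with 95% counting intervals. The lines separate with time for *Ythdf1*, *Ythdf2* and *Alkbh5*, cross on the CPM scale for *Ythdf3*, *Ythdc1* and *Ythdc2*, and stay nearly flat for *Fto*, *Igf2bp2* and *Igf2bp3*.

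Of the cytoplasmic YTH readers, *Ythdf1* and *Ythdf2* were short-lived in WT cells. *Ythdf2* was at 145, 21.5 and 8.33 CPM at 0, 4 and 8 h in WT cells and at 182, 84.0 and 61.1 CPM in R255K cells. *Ythdf1* was at 260, 62.1 and 15.9 CPM in WT cells and at 280, 140 and 88.4 CPM in R255K cells. For both genes the genotypes were within 1.5-fold of each other at 0 h and far apart at 8 h, with R255K on top. *Ythdf3* was at 134, 70.7 and 22.0 CPM in WT cells and at 57.8, 75.1 and 54.7 CPM in R255K cells, so that R255K was the lower genotype at 0 h and the higher one at 8 h.

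At 8 h, 5.73% of the 0 h level of *Ythdf2* was left in WT cells (95% interval 4.71 to 6.91) and 33.5% in R255K cells (31.3 to 35.9). For *Ythdf1* these shares were 6.12% (5.32 to 7.01) and 31.6% (29.8 to 33.4), and for *Ythdf3* 16.4% (14.5 to 18.5) and 94.7% (86.6 to 104). The median expressed gene kept 64.1% of its level in WT cells and 92.0% in R255K cells, and the 10th percentile was at 7.21% and at 27.2%. *Ythdf1* and *Ythdf2* were thus below the 10th percentile in WT cells and just above it in R255K cells. The shares are relative to all RNA in the library, since no spike-in was used, and a share over 100% means that a transcript outlasted the rest.

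Decay rates were taken as the mean of the rates over 0 to 4 h and 0 to 8 h. The half-life of *Ythdf2* by these rates was 1.66 h in WT cells and 4.20 h in R255K cells, 2.53 times as long (95% interval 2.34 to 2.73). That of *Ythdf1* was 1.96 h and 4.36 h, 2.22 times as long (2.09 to 2.37). *Ythdf3* had a half-life of 3.59 h in WT cells and no decay over the first 4 h in R255K cells, where it stood at 130% of its 0 h level. From 4 to 8 h, which leaves the 0 h libraries out, the half-life ratios were 2.98 for *Ythdf1*, 2.98 for *Ythdf2* and 3.70 for *Ythdf3*. The median of all expressed genes by that rate was 2.40.

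At 0 h the ratio of R255K over WT varied with base composition. Which genotype's library carried this trend, and its cause, were not tested. The median log2 ratio of R255K over WT was −0.67 for expressed genes with an exon GC content under 42% and 0.30 for those over 54%, whereas at 4 and 8 h both ends were above 0. *Ythdf3* has a GC content of 38.5%. At 0 h its log2 ratio was −1.22, and it was −0.24 once the trend with GC content was subtracted. With that correction its half-life ratio was 4.00, and those of *Ythdf1* and *Ythdf2*, with GC contents of 49.6% and 48.8%, were 2.25 and 2.51. The corrected median of all expressed genes was 1.97.

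Of the YTHDC readers, *Ythdc2* was lower by more than 1.5-fold in R255K cells at 0 h and higher at 4 and 8 h, whereas *Ythdc1* was within 1.5-fold of WT cells at every time. At 0 h *Ythdc1* was lower by more than 1.5-fold under other scalings. Its log2 ratio was then −0.60 with median-of-ratios and −0.64 with ribosomal protein gene scaling. *Ythdc1*, the nuclear reader, was at 105, 65.3 and 49.4 CPM in WT cells and at 74.7, 69.1 and 60.1 CPM in R255K cells. *Ythdc2*, the helicase, was read with between 28 and 318 counts, at 18.2, 7.74 and 2.03 CPM in WT cells and at 10.6, 15.2 and 6.43 CPM in R255K cells. In WT cells both were lower at each later time, whereas in R255K cells *Ythdc2* was highest at 4 h.

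At 8 h, 47.0% of *Ythdc1* was left in WT (95% interval 43.0 to 51.3) and 80.4% in R255K cells (74.0 to 87.3). For *Ythdc2* it was 11.1% (7.27 to 16.4) and 60.6% (47.5 to 77.1). *Ythdc1* had a WT half-life of 6.50 h and an R255K half-life of 29.7 h, with an interval from 18.9 to 68.4 h for the latter and a ratio of 4.56 (2.56 to 8.14). *Ythdc2* had a half-life of 2.84 h in WT cells and no decay by the mean rate in R255K cells.

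Both genes are poor in GC, at 36.9% and 41.0%, and their 0 h ratios moved when the GC trend was subtracted. With the trend subtracted, the log2 ratio at 0 h went from −0.49 to 0.64 for *Ythdc1* and from −0.78 to −0.06 for *Ythdc2*, and the half-life ratio of *Ythdc1* from 4.56 to 0.262, the opposite direction. The corrected ratio of *Ythdc2* was 6.35, beside a corrected median of 1.97 for all expressed genes. From 4 to 8 h, without the 0 h libraries, the half-life ratios were 1.98 for *Ythdc1* and 1.56 for *Ythdc2*. Both were below the median of all expressed genes by that rate, 2.40. Of the exon bases of *Ythdc1*, 4.62% are shared with another annotated gene.

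The erasers behaved unlike each other. *Alkbh5* was at 129, 27.6 and 10.3 CPM in WT cells and at 207, 109 and 85.1 CPM in R255K cells, higher in R255K cells at every time. *Fto* was at 121, 151 and 151 CPM in WT cells and at 138, 140 and 159 CPM in R255K cells, and the genotypes were within 1.5-fold of each other at every time.

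Of *Alkbh5*, 7.95% was left at 8 h in WT (95% interval 6.66 to 9.42) and 41.1% in R255K cells (38.7 to 43.6). This gave a half-life of 1.97 h in WT cells against 5.08 h in R255K cells, 2.58 times as long (2.37 to 2.80), which was 2.64 with the GC trend subtracted. Of *Fto*, 125% was left in WT (118 to 133) and 115% in R255K cells (109 to 122), so that no half-life could be given in either.

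Among the IGF2BP genes, *Igf2bp1* had a measurable decay in both genotypes. It was at 613, 343 and 212 CPM in WT cells and at 987, 548 and 562 CPM in R255K cells. *Igf2bp2* was at 93.4, 102 and 100 CPM in WT cells and at 91.7, 93.6 and 84.2 CPM in R255K cells. *Igf2bp3* was at 67.2, 77.0 and 85.9 CPM in WT cells and at 16.8, 20.9 and 20.04 CPM in R255K cells. *Igf2bp1* was the higher in R255K cells at all times and *Igf2bp3* the lower, with no overlap between the genotypes, and *Igf2bp2* was close in both.

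At 8 h, 34.5% of *Igf2bp1* was left in WT (95% interval 33.1 to 36.0) and 57.0% in R255K cells (55.6 to 58.4). At 4 h the shares were 55.9% and 55.6%, so the genotypes parted between 4 and 8 h. Its half-lives were 4.98 and 6.39 h, a ratio of 1.28 (1.22 to 1.35). This direction turned with the scaling, to 0.982 with TMM (trimmed mean of log ratios), 0.951 with median-of-ratios and 0.170 with *Gapdh* scaling, and the ratio was 1.67 with ribosomal protein gene scaling. Of *Igf2bp2*, 107% was left at 8 h in WT (99.8 to 115) and 91.9% in R255K cells (85.5 to 98.8), and of *Igf2bp3* 128% (118 to 139) and 119% (102 to 140). *Fto*, *Igf2bp2* and *Igf2bp3* were the members without a half-life in WT cells.

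**Figure D3:**
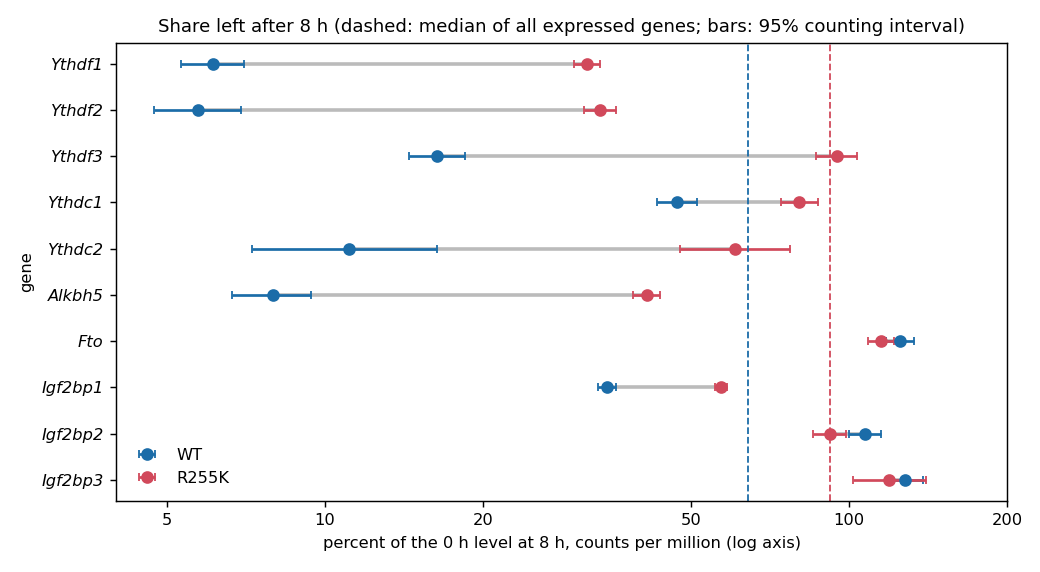
Percent of the 0 h level left after 8 h in actinomycin D (x axis, log axis) for each gene (y axis) in WT (blue) and R255K (red) cells, with 95% counting intervals and dashed lines at the medians of all expressed genes, 64.1% and 92.0%. *Ythdf1*, *Ythdf2* and *Alkbh5* lie between 5.73% and 7.95% in WT and between 31.6% and 41.1% in R255K cells, whereas *Fto*, *Igf2bp2* and *Igf2bp3* lie near or above 91.9% in both.

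Over the 10 genes, 7 were lower by more than 1.5-fold at 8 h than at 0 h in WT cells, where this held for 51.0% of expressed genes, and 5 in R255K cells, where it held for 32.4%. None of the 10 was higher by more than 1.5-fold at 8 h than at 0 h (0 in WT cells, beside 18.8% of expressed genes, and 0 in R255K cells, beside 7.23%). The median share left at 8 h was 25.4% in WT and 70.5% in R255K cells. The share left was over 1.5 times as high in R255K as in WT cells for 7 of the 10 genes and for 44.1% of expressed genes, and it was under 1/1.5 for 0 of the 10 and for 9.96% of expressed genes. The ratio of the shares was 5.16 for *Ythdf1*, 5.84 for *Ythdf2*, 5.78 for *Ythdf3*, 5.45 for *Ythdc2* and 5.17 for *Alkbh5*, 1.71 for *Ythdc1* and 1.65 for *Igf2bp1*, and between 0.857 and 0.933 for the other 3. The median was 3.44 for the 10 genes and 1.32 for all expressed genes. Shares were scaled by summed counts, and the counts were not repeated under the alternatives. With median-of-ratios scaling, the log2 ratio from 0 to 8 h went from −0.60 to −0.32 for *Ythdc1* and from 0.57 to 0.81 for *Igf2bp1*. It went from 0.08 to −0.53 for *Fto*, from −0.14 to −0.85 for *Igf2bp2* and from −2.11 to −2.70 for *Igf2bp3*. With the GC trend subtracted, that of *Ythdc1* fell from 0.64 to 0.04. By the median-of-ratios values, *Ythdc1* and *Igf2bp1* would fall short of 1.5 times. *Fto*, *Igf2bp2* and *Igf2bp3* would be under 1/1.5, so both counts of shares rest on the scaling. The counts belong to genes chosen with results of these data known.

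A half-life in both genotypes could be given for 5 of the 10 genes. It was over 1.5 times as long in R255K cells for 4 of them, with a median ratio of 2.53, beside 68.8% of 5504 expressed genes and a median ratio of 1.98. It was under 1/1.5 for 0 of the 5, beside 5.78% of expressed genes. When the libraries were scaled to *Gapdh* instead of their summed counts, the ratios turned to 0.772 for *Ythdf1*, 0.941 for *Ythdf2*, 0.820 for *Alkbh5*, 0.170 for *Igf2bp1* and 0.0836 for *Ythdc1*, and the median of all expressed genes turned to 0.549. The direction of the half-life ratio therefore rests on the scaling. The ratio was below 1 under 1 of 7 alternatives for each of *Ythdf1*, *Ythdf2* and *Alkbh5*. It was below 1 under 2 of 7 for *Ythdc1* and under 3 of 6 for *Igf2bp1*. The ratios of *Ythdf2* and *Alkbh5* were above the median of all expressed genes under all 7 alternatives run. That of *Ythdf1* was above it under 6 of the 7, and was 2.40 against 2.42 with ribosomal protein gene scaling. That of *Ythdc1* was above it under 4 of the 7, and that of *Igf2bp1* under 0 of the 6 that gave a value.

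Side by side, the levels of R255K over WT separated the members at 8 h. At 0 h, 2 of the 10 were higher by more than 1.5-fold in R255K cells, *Alkbh5* at a ratio of 1.60 (95% interval 1.52 to 1.69) and *Igf2bp1* at 1.61 (1.57 to 1.65), beside 20.7% of expressed genes. Both fell short of 1.5-fold with median-of-ratios scaling, at a log2 ratio of 0.57 each, and with ribosomal protein gene scaling, at 0.53 each. Lower by more than 1.5-fold were 3, *Ythdf3* at 0.430 (0.398 to 0.465), *Ythdc2* at 0.582 (0.479 to 0.704) and *Igf2bp3* at 0.250 (0.218 to 0.286), beside 19.6% of expressed genes. With the GC trend subtracted, *Igf2bp3* alone of these 3 was lower by more than 1.5-fold. *Ythdc1* was then higher by more than 1.5-fold, at a log2 ratio of 0.64.

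At 4 h, 5 were higher by more than 1.5-fold, beside 34.4% of expressed genes, and 1 was lower, beside 9.96%. At 8 h, 6 were higher, beside 47.7%, and 1 was lower, beside 10.6%. The ratios at 8 h were 8.28 for *Alkbh5* (95% interval 6.97 to 9.90), 7.34 for *Ythdf2* (6.05 to 8.96), 5.55 for *Ythdf1* (4.82 to 6.42), 3.17 for *Ythdc2* (2.09 to 4.97), 2.66 for *Igf2bp1* (2.55 to 2.77) and 2.49 for *Ythdf3* (2.19 to 2.84). *Igf2bp3* was at 0.233 (0.207 to 0.262). The intervals of *Alkbh5* and *Ythdf2* overlapped, as did those of *Ythdf2* and *Ythdf1*.

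The median log2 ratio of all expressed genes was 0.06 at 0 h, 0.23 at 4 h and 0.52 at 8 h, and that of the 10 genes was 0.04, 0.38 and 1.36. Median-of-ratios scaling moved the medians of all expressed genes by −0.11, −0.27 and −0.60 and scaling to 76 ribosomal protein genes by −0.15, 0.21 and 0.37. At 8 h the log2 ratio of *Ythdc1* was 0.28 and turned to −0.32 under median-of-ratios scaling, that of *Fto* was 0.07 and turned to −0.53, and that of *Igf2bp2* was −0.25 and turned to 0.12 under ribosomal protein gene scaling. At 4 h those of *Ythdf3* and *Ythdc1*, 0.09 and 0.08, also changed sign, to −0.19 and −0.19 under median-of-ratios scaling. No such change of sign was seen at 8 h for the 6 higher genes or for *Igf2bp3* under the 5 alternatives. The number higher by more than 1.5-fold did change. It was 5 as log2(FPKM + 1), where *Ythdc2* was at 0.49, and 7 with ribosomal protein gene scaling.

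**Figure D4:**
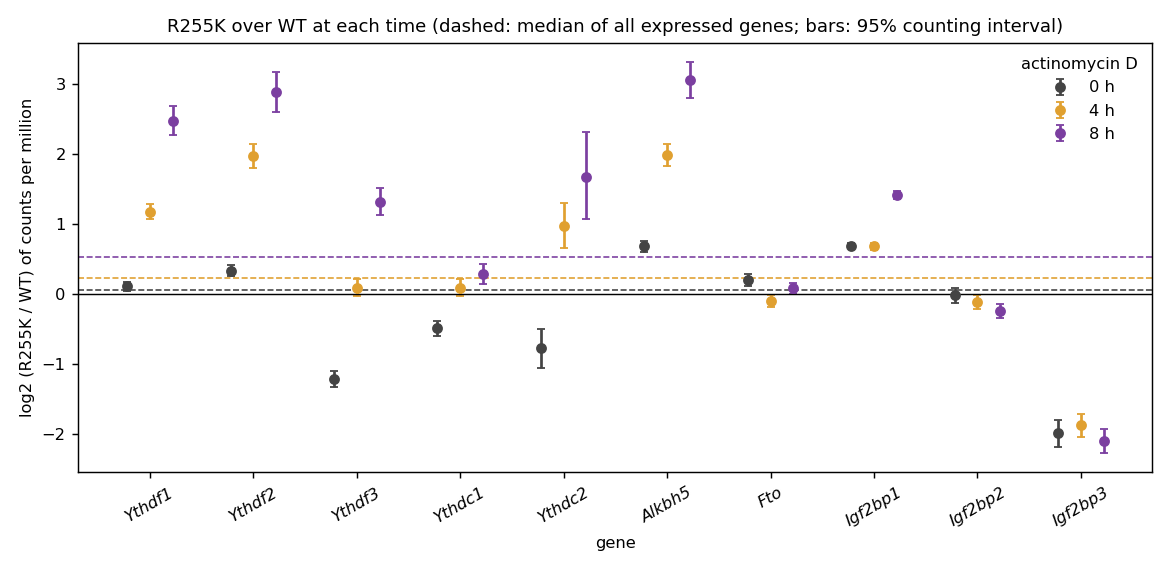
Log2 ratio of R255K over WT CPM (y axis) for each gene (x axis) at 0 h (grey), 4 h (yellow) and 8 h (purple), with 95% counting intervals and dashed lines at the medians of all expressed genes, 0.06, 0.23 and 0.52. The ratio is higher at each later time for *Ythdf1*, *Ythdf2*, *Ythdf3*, *Ythdc1*, *Ythdc2* and *Alkbh5*, and lies between −1.88 and −2.10 at all 3 times for *Igf2bp3*.

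*Alkbh5* and *Igf2bp1* both lie on chromosome 11. Its 982 expressed genes had a median log2 ratio of R255K over WT of 0.58 at 0 h, 0.71 at 4 h and 0.95 at 8 h, and the genes of the other autosomes of 0.02, 0.19 and 0.47. The 0 h log2 ratios of *Alkbh5* and *Igf2bp1*, 0.68 and 0.69, thus stood near the median of their chromosome. The part of the chromosome in these values was not tested. Of the exon bases of *Igf2bp3*, 18.7% are shared with *Malsu1* on the opposite strand, and the library kit as described does not mark the strand, so reads of the pair cannot be told apart there.

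The peaks and the decay in WT cells can be set side by side for the 10 genes. *Ythdf1*, *Ythdf2* and *Alkbh5*, with the 3 lowest shares left, and *Ythdf3*, with 16.4% left, had the 4 peaks wider than 1300 bp. That width was chosen after these peaks were seen. *Ythdc2*, with 11.1% left in WT cells, had no peak, and was the member with the fewest counts. *Igf2bp2* and *Igf2bp3* had no peak, and no half-life in WT cells. *Fto* had a peak with a fold enrichment of 6.81 and no half-life in WT cells. *Ythdc1*, with 4 peaks and the highest fold enrichment, 7.88, had 47.0% left at 8 h. *Igf2bp1*, with 2 peaks, had 34.5% left. Exon GGAC density was 4.37 per kb for *Ythdf2*, 4.34 for *Alkbh5*, 4.29 for *Igf2bp3*, 4.23 for *Igf2bp1*, 4.22 for *Ythdf1* and 3.79 for *Igf2bp2*. It was 2.80 for *Ythdf3*, 2.71 for *Ythdc1*, 2.46 for *Fto* and 1.91 for *Ythdc2*, with a median of 3.86 over all expressed genes. The relation of peak width or GGAC density to decay was not tested.

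Genes with the most similar pattern over the 6 libraries were found by the root mean square difference in log2 CPM after each gene's mean was subtracted. For *Ythdf2* they were *Skil*, *Ugcg* and *Mgat1*, at 0.07, 0.07 and 0.10, with between 4.72% and 5.27% left at 8 h in WT cells and between 30.03% and 34.6% in R255K cells. For *Alkbh5* they were *Surf6*, *Slc35c1* and *Rdh11*, at 0.11, 0.12 and 0.13. For *Igf2bp1* they were *Efna3*, *Poll* and *Kcnd1*, all at 0.09 or 0.10. Among the 10 genes themselves, *Fto* and *Igf2bp2* were the closest pair, at 0.16, followed by *Ythdf2* and *Alkbh5* at 0.21 and *Ythdf1* and *Ythdf2* at 0.32. The libraries share their depth and composition within a column, so these are descriptions.

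The writers, which place the mark, were set beside the readers and erasers. Of 9 writer genes, 1 was higher and 1 lower by more than 1.5-fold in R255K cells at 0 h, where 20.7% of all expressed genes were higher and 19.6% lower. The highest log2 ratio at 0 h was that of *Mettl16*, a methyltransferase of U6 snRNA, at 0.66, and the lowest that of *Mettl14* at −1.03. At 8 h 8 of the 9 were higher and *Mettl14* was lower, beside 47.7% and 10.6% of expressed genes, and of the 7 with a half-life in both genotypes 6 had one at least 1.5 times as long in R255K cells, the median ratio being 2.22, beside 68.8% and a median of 1.98 for all expressed genes.

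The counts of the other lists stand beside the same shares of expressed genes, 20.7% higher and 19.6% lower at 0 h and 47.7% higher and 10.6% lower at 8 h. Of 14 partners of YTH proteins in decay and export, 1 was higher and 2 were lower at 0 h, with log2 ratios from 0.78 for *Pop1*, a subunit of RNase P and RNase MRP, to −1.01 for *Xrn1*, the cytoplasmic 5´ to 3´ exonuclease. At 8 h, 6 were higher and 0 lower. Of 7 partners of IGF2BP proteins, 0 were higher and 4 lower at 0 h, with log2 ratios from 0.13 for *Ybx1*, a cold shock domain protein, to −1.24 for *Matr3*, a nuclear matrix protein, and 0 were higher and 2 lower at 8 h. Of 9 other proteins reported to bind m6A RNA, 0 were higher and 4 lower at 0 h, with log2 ratios from 0.33 for *Eif3b*, a translation initiation factor, to −1.60 for *Fmr1*, the gene of the fragile X protein, and 3 were higher and 3 lower at 8 h. Of 7 other AlkB homologues, 2 were higher and 1 lower at 0 h, with log2 ratios from 0.88 for *Alkbh2*, a DNA repair enzyme, to −1.36 for *Alkbh8*, a tRNA modification enzyme, and 4 were higher and 0 lower at 8 h.

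Some of these counts also changed when the GC trend at 0 h was subtracted. *Matr3*, *Fmr1*, *Xrn1* and *Alkbh8* have GC contents of 39.2%, 36.8%, 40.7% and 40.6%. With the GC trend subtracted, an alternative chosen after seeing the data, 0 of the 7 IGF2BP partners and 0 of the 9 other m6A binders were lower by more than 1.5-fold at 0 h. Of the 14 YTH partners 4 were then higher and 0 lower, of the 9 writers 2 were higher and 0 lower, and of the 7 AlkB homologues 2 were higher and 1 lower. Of all expressed genes with a GC content, 23.4% were then higher and 12.8% lower.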

How the data were processed

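The 14 samples were taken in their groups from the labels: 8 MeRIP-seq libraries (2 IP and 2 input per genotype) and 6 actinomycin D libraries. The authors removed reads of rRNA with Bowtie2 2.2.6, aligned the rest to mm10 with HISAT2, kept uniquely mapped reads with Picard 2.16.0 and SAMtools 0.1.09 and called peaks with MACS2. The deposited counts are raw counts per gene. The deposited fold enrichment is a ratio of IP over local background, and the deposited −log10 q and score column are those of MACS2. The counting tool, its annotation and the combination of libraries for peak calling are not given in the sources used here. No replicate values, and no depth behind the peaks, can be read from the lists.

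Counts were divided by the summed counts of the library (CPM) and by exon length (FPKM). Ratios of counts have exact conditional binomial intervals, levels exact Poisson intervals, and half-lives delta-method intervals, all at 95%. A later count under 3 was set to 3. A member was called at 1.5-fold. No test between genotypes was run, since each genotype and time has 1 library, and the decay step was tested on simulated data. Peaks were placed on GENCODE vM21 exons with bedtools 2.31.1 (overlap of at least 1 bp). The sequence at 1 of the coding summits is not reported here. Alternatives were TMM and median-of-ratios scaling (edgeR 4.0.16, R 4.3.3), ribosomal protein genes, *Gapdh*, a lowess GC trend (span 0.3), log2(FPKM + 1), single decay intervals and stricter peaks. Scripts used scipy 1.17.1, pandas 2.3.3, pysam 0.24.0, numpy 2.4.6, matplotlib 3.10.9 and statsmodels 0.14.6 in Python 3.11.15.

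All 10 members are named, with *Mettl14*, the 3 genes most like *Ythdf2*, *Alkbh5* and *Igf2bp1*, and the ends of each pathway list at 0 h. Members and lists were chosen with earlier results of these data known.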

Additional observations from a re-analysis of the deposited data

Results flagged for a closer look

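For 4 genes the ratio of R255K over WT lay on opposite sides of 1 at different times, with counting intervals that did not include 1. The difference was not tested over replicates, because each genotype and time has 1 library. *Ythdf3* had a ratio of 0.430 at 0 h and of 2.49 at 8 h. *Ythdc1* had a ratio of 0.711 at 0 h and of 1.22 at 8 h. *Ythdc2* had a ratio of 0.582 at 0 h, of 1.96 at 4 h and of 3.17 at 8 h. These 3 genes have an exon GC content of 38.5%, 36.9% and 41.0%, and with the GC trend subtracted their log2 ratios at 0 h were −0.24, 0.64 and −0.06. *Fto* had a ratio of 1.14 at 0 h and of 0.928 at 4 h, and with ribosomal protein gene scaling its log2 ratio at 4 h was 0.10.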

How the results depend on the processing

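No paired analysis was possible because the values compared come from no test and the actinomycin D libraries carry no replicate numbers. A model with time as a block, which would average the genotypes over the 3 times, was not run. With 1 library per genotype and time and 1 peak list per genotype, no replicate could be left out. The median log2 ratio of the 10 genes at 0 h, 0.04, turned to −0.0046 with TMM, −0.073 with median-of-ratios and −0.11 with ribosomal protein gene scaling and was 0.26 with the GC trend subtracted. The number higher by over 1.5-fold at 0 h went from 2 to 0 with median-of-ratios and with ribosomal protein gene scaling. With the GC trend subtracted the number higher was 3, *Ythdc1* included, and the number lower went from 3 to 1. With median-of-ratios and with ribosomal protein gene scaling the number lower was 4. The median at 4 h, 0.38, was 0.16 with TMM, 0.11 with median-of-ratios and 0.59 with ribosomal protein gene scaling. The number higher at 4 h went from 5 to 4 with TMM, with median-of-ratios scaling and as log2(FPKM + 1). The median at 8 h, 1.36, was 0.93, 0.76 and 1.73 in the same order and 0.81 as log2(FPKM + 1), and the number lower at 8 h went from 1 to 2 with TMM and with median-of-ratios scaling. The median half-life ratio, 2.53, was 2.74 over 8 genes with ribosomal protein gene scaling, of which 8 were over 1.5, against 4 of 5 before. It was 2.85 by the 0 to 8 h rate, with 7 over 1.5, and 2.98 by the 4 to 8 h rate, with 1 under 1/1.5. With *Gapdh* scaling the median was 0.772, with 0 over 1.5 and 2 under 1/1.5, and the ratios were 0.772 for *Ythdf1*, 0.941 for *Ythdf2*, 0.0836 for *Ythdc1*, 0.820 for *Alkbh5* and 0.170 for *Igf2bp1*. With the GC trend subtracted, 1 was under 1/1.5, *Ythdc1* at 0.262. Counting only peaks enriched 4-fold or more, the genes had 7 in WT and 6 in R255K cells, and 0 were without an R255K peak, against 15, 11 and 4 of all peaks. Of 150 log2 ratios of single genes under alternatives, 60 stayed within their counting interval and 90 did not, and 16 changed sign. Of 34 half-life ratios 15 stayed within it and 19 did not, and 8 turned to the other side of 1, of which 3 were those of *Igf2bp1*. The causes were not tested. The counts of *Ythdc2*, 28 in WT cells at 8 h, limit its precision most.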
